A study of Mus musculus with 6 samples.

Results

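The HoxB cluster is the group of homeobox genes that lies on mouse chromosome 11, and it was examined here for binding of Ezh2 in T helper cells. Its 10 members are Hoxb1 to Hoxb9 and Hoxb13, out of 49997 genes in the gene table, and they were chosen by name and position. The cluster was taken as chr11:96050001-96235000 in the mm9 build, which is 185 of the 2638957 bins of 1 kb on chromosomes 1 to 19 and X. Approximate mm9 positions were given for 3 members, with Hoxb13 near 96055700, Hoxb9 near 96132600 and Hoxb1 near 96227000. The other 7 were placed only by gene order between Hoxb9 and Hoxb1, because no mm9 annotation was used.

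Ezh2 is the enzyme of a Polycomb complex, PRC2, that places methyl groups on lysine 27 of histone H3 and helps to keep genes silent. Hox genes encode homeodomain transcription factors that set position along the body axis, and Hox clusters are among the best known targets of this complex in cells that do not use them. In blood, several Hoxb genes are known from stem and progenitor cells rather than from mature T cells. No RNA was measured here, so neither the activity of these genes nor the markers that define Th1 and Th2 cells could be checked.

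The libraries came from naive CD4 T cells (CD44 low, CD62L high) of C57BL/6 spleens. They had been cultured for 5 days, with 2 days on antibodies to TCRβ and CD28 and 3 more days without them, in IL-2 at 15 ng/ml throughout. Th1 cultures also received IL-12 at 10 ng/ml and an antibody to IL-4, and Th2 cultures received IL-4 at 100 ng/ml and an antibody to IFN-γ. From each culture type, chromatin was immunoprecipitated with a rabbit polyclonal antibody to Ezh2 or with control rabbit IgG, and input DNA was sequenced as the background, which gave 6 libraries. The sources used here do not give the age, sex or number of the animals. Each group was 1 library, so there was no replicate spread, and every interval and p below covers counting error between libraries only. The sequencing runs named in the deposited data differed between cell types, so run and cell type cannot be told apart. The control antibody library of Th2, as used here, held no data on chromosome 11, which left 5 libraries and no Th2 control antibody for HoxB.

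Library sizes were 10809666 distinct positions for Th1 Ezh2, 14963599 for Th2 Ezh2, 15578675 for Th1 input, 12862628 for Th2 input and 9326717 for the Th1 control antibody. A position is 1 deposited interval of 119 bp, counted once whatever its number of reads. Each position stood for 2.24 reads in Th1 Ezh2, 2.04 in Th2 Ezh2, 1.29 in Th1 input and 1.77 in Th2 input. Fold over input is the ratio of positions, each divided by its library total, with a 95% exact (Clopper-Pearson) interval. In chromatin from many cells, a larger share of bound cells and more Ezh2 per cell cannot be told apart.

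In the RefSeq gene table of GRCm38.p6, which served for names and order alone, all 10 members were found. Going from Hoxb13 toward Hoxb1, the order by first base was Hoxb13, Hoxb9, Hoxb8, Hoxb7, Hoxb6, Hoxb5, Hoxb3, Hoxb4, Hoxb2 and Hoxb1. Between Hoxb13 and Hoxb9 the table held no further protein-coding gene. It listed the noncoding genes Gm30134, Gm11538, Gm53 and Gm51876, the pseudogene Gm11539 and the microRNA gene Mir196a-1 there. A second microRNA gene, Mir10a, lay next to Hoxb4. The mature 5′ strands of both are shown because they mark the gap and the Hoxb4 neighbourhood in gene order, with capitals on the seed, bases 2 to 8. Both lie on the + strand in GRCm38.p6, at chr11:96265187-96265208 and chr11:96317186-96317208, and the sequences are from RefSeq. MicroRNAs of the miR-196 family are known to cut Hoxb8 messenger RNA in mouse embryos.
mmu-miR-196a-5p: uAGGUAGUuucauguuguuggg
mmu-miR-10a-5p: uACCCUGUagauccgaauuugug

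Promoter sequences in RefSeq (GRCm38.p6) were matched for 3 of the 10 members, Hoxb8, Hoxb4 and Hoxb1, running from 250 bases before to 50 bases after the annotated start on the + strand. They are shown because Polycomb complexes in mammals are known to gather at DNA rich in the CG dinucleotide, which stands in capitals. The Hoxb8 stretch is chr11:96281655-96281954, the Hoxb4 stretch chr11:96318017-96318316 and the Hoxb1 stretch chr11:96365508-96365807. These are GRCm38.p6 coordinates and cannot be read against the mm9 coordinates of the libraries.
Hoxb8: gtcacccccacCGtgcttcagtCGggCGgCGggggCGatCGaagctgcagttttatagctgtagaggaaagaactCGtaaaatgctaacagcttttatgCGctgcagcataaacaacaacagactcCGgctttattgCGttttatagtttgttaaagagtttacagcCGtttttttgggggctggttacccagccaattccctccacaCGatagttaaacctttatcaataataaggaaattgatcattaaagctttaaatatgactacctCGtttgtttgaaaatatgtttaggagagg
Hoxb4: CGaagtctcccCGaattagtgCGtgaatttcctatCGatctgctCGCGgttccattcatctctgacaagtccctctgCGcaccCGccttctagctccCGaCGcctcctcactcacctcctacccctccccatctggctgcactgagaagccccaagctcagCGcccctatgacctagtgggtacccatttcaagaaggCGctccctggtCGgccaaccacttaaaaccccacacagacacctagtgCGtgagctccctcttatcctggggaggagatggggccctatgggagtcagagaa
Hoxb1: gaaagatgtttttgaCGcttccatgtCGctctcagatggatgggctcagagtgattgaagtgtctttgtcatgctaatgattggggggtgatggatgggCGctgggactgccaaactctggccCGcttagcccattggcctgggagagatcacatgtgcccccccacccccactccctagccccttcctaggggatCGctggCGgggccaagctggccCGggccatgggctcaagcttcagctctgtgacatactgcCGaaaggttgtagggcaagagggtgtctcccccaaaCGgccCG

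The Hoxb8 stretch held 13 CG dinucleotides, Hoxb4 held 14 and Hoxb1 held 10, against a median of 7 over 32851 promoters of the same length. As many or more were found in 37.9%, 36.3% and 43.5% of all promoters, so none of the 3 stood far from other promoters in this count. The CG motif reads the same on both strands. GC content was 42.3% for Hoxb8, 58% for Hoxb4 and 59.3% for Hoxb1, around a median of 52.7%.

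The first question was how far Ezh2 covered the cluster. Ezh2 was enriched over input across the whole window, 6.57-fold (95% interval 6.21 to 6.95) in Th1 and 7.96-fold (7.51 to 8.45) in Th2, while the Th1 control antibody stood at 1.01-fold (0.926 to 1.10). The window held 6698 Ezh2 positions in Th1 and 11637 in Th2, over 1470 and 1256 input positions and 887 of the control antibody. Per 1 kb bin, Th1 Ezh2 ran from 4 through a median of 28 to 131 positions, and Th2 Ezh2 from 8 through 49 to 211. The inputs ran from 0 through 8 to 17 positions in Th1 and from 1 through 6 to 16 in Th2, and the control antibody from 0 through 4 to 13. The Ezh2 medians therefore lay above the highest bin of either input.

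**Figure D1:**
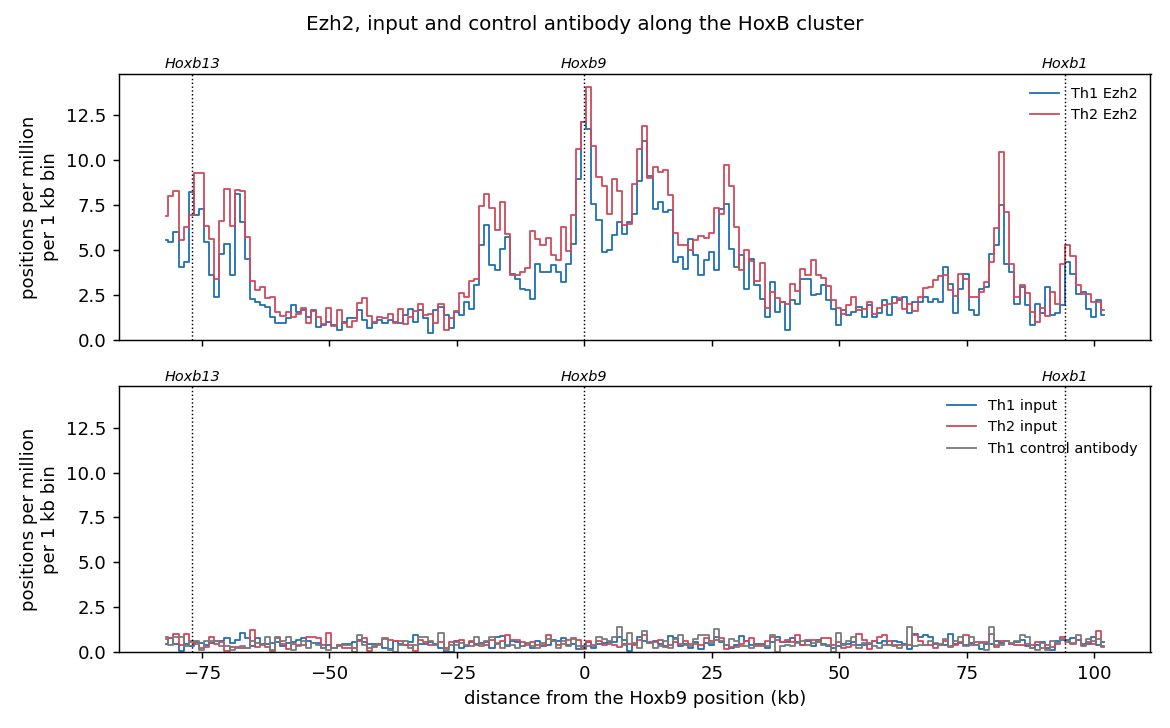
Positions per 1 kb bin and per 1000000 positions of the library along the HoxB window, plotted against distance from the Hoxb9 position in kb, with Ezh2 of Th1 and Th2 above and the inputs and the Th1 control antibody below on the same axis. Ezh2 reached 12.1 per 1000000 in Th1 and 14.1 in Th2 beside Hoxb9, and the other 3 libraries stayed at or below 1.39 per 1000000 in every bin.

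A bin was called enriched at a Benjamini-Hochberg adjusted p below 0.05 in a one-sided exact binomial test and a fold of at least 2. By this rule 118 of 184 tested bins were called in Th1, where 0.992% of all tested bins of the genome were called. In Th2, 140 of 185 bins were called, against 1.21% of all tested bins. In both cell types 112 bins were called, against 0.842% of bins tested in both. Another 6 were called in Th1 alone and 28 in Th2 alone. Over the genome 13220 bins were called in Th1 and 17075 in Th2, with 8501 called in both. Calls in 1 library alone were thus common outside HoxB as well, and more bins were called in Th2. With both Ezh2 libraries and both inputs thinned to equal depth, 113 bins were called in Th1, against 1.04% of all tested bins, and 135 in Th2, against 1.45%. The longest unbroken run of called bins was 57 kb in Th1 (96111001 to 96168000) and 60 kb in Th2 (96108001 to 96168000), and both runs contained the Hoxb9 position. With the control antibody, 0 of 150 tested bins were called in the exact binomial test, against 0.00151% of all, and 8 reached an unadjusted p below 0.05, near the 4.92% seen over all tested bins.

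Among windows of the same length, few were as enriched. Of 13568 other windows of 185 kb, 1 had a higher fold than HoxB in Th1, with a highest value of 7.13, and 2 of 13549 had a higher fold in Th2, with a highest value of 10.3. The median of such windows was 0.885-fold in Th1 and 0.888-fold in Th2. More bins were called in 1 other window in Th1 (122 bins) and in none in Th2, where the next held 128. The other windows were consecutive tiles of 185 kb with at least 200 input positions that did not overlap HoxB. Their borders were fixed without regard to enriched regions, while the HoxB window was set to its cluster. An enriched region cut by a tile border is split over 2 tiles, which favours HoxB in this placement. These are placements on the genome and no test.

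Enrichment was uneven within the cluster. In 37 blocks of 5 kb, the fold ran from 2.02 to 25.5 in Th1 with a median of 5.56, and from 2.23 to 20.7 in Th2 with a median of 6.35. The interval lay above 1 in all 37 blocks of both cell types. Among blocks of the genome with at least 50 Ezh2 and input positions together, the median was 1.03 in Th1 and 0.992 in Th2. These were 256206 blocks in Th1 and 281057 in Th2, and their 99th percentiles were 3.39 and 3.88. In Th1 27 of the 37 HoxB blocks exceeded that percentile, and in Th2 26 did. The control antibody ranged from 0.482 to 1.77 over the same blocks, with its interval above 1 in 2 blocks and below 1 in 3.

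**Figure D2:**
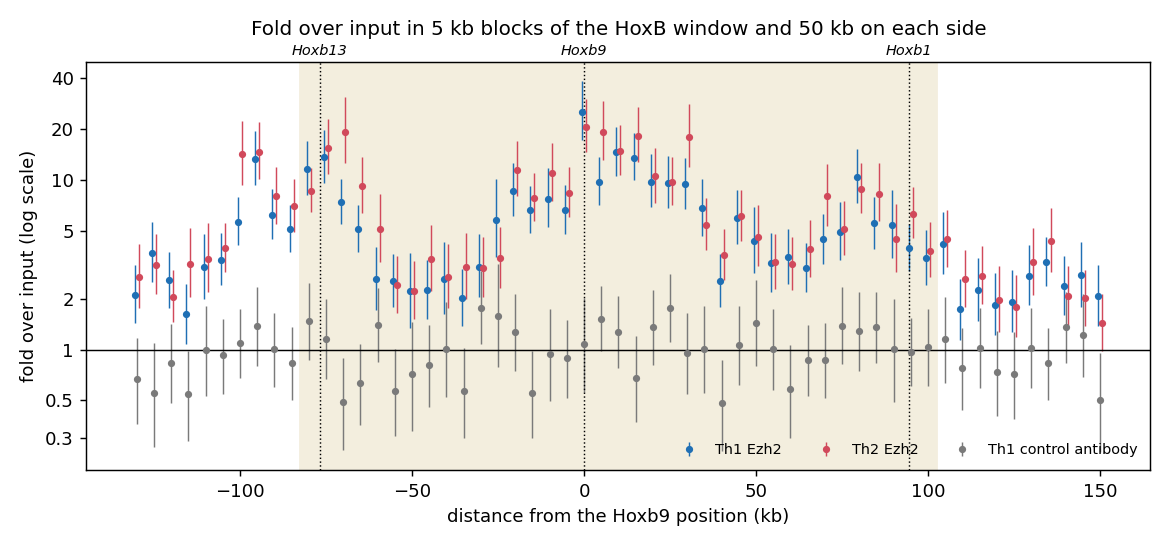
Fold over input on a log axis in 5 kb blocks against distance from the Hoxb9 position in kb, for Th1 Ezh2, Th2 Ezh2 and the Th1 control antibody; bars are 95% exact counting intervals and the shaded stretch is the 185 kb window. Ezh2 was highest at Hoxb9 (25.5-fold in Th1, 20.7-fold in Th2), dipped to about the level of the Hoxb1-side flank in the middle of the gap, and the control antibody stayed between 0.482 and 1.77.

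Hoxb13 is the outlying member of the cluster, expressed in the embryonic tail and in the prostate. Around its given position (96053001 to 96058000), 5 kb held 334 Ezh2 positions in Th1 and 559 in Th2, over 30 and 34 input positions and 24 control antibody positions. Ezh2 was thus far above the other libraries, at 16.0-fold (11.0 to 24.2) in Th1 and 14.1-fold (9.99 to 20.6) in Th2, against 1.34-fold (0.748 to 2.36) with the control antibody. In both cell types 5 of 5 bins were called. The wider Hoxb13 segment of 11 kb, from the start of the window to 5 kb past the gene position, stood at 11.6-fold (9.16 to 14.8) in Th1 and 11.0-fold (8.84 to 13.8) in Th2, with 11 of 11 bins called in each.

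Hoxb9, which helps to pattern the thorax, lies at the other end of the gap and carried the most Ezh2. The 5 kb around it (96130001 to 96135000) held 495 Ezh2 positions in Th1 and 818 in Th2, over 28 and 34 input positions and 18 control antibody positions. This was 25.5-fold (17.4 to 38.7) in Th1 and 20.7-fold (14.7 to 30.1) in Th2, against 1.07-fold (0.559 to 2.01) with the control antibody. The single highest bin of the window was 96132001 to 96133000 in Th1, with 131 positions, and the next bin, 96133001 to 96134000, in Th2, with 211. Of the 5 bins with the most Ezh2 positions in each cell type, 4 were shared. In Th1 those were 96132001 (131 positions), 96133001 (127), 96144001 (120), 96145001 (99) and 96131001 (97). In Th2 they were 96133001 (211), 96132001 (182), 96144001 (178), 96134001 (162) and 96131001 (159). All of them lay within about 13 kb of Hoxb9 on its Hoxb1 side or just beside it.

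Hoxb1, which sets the identity of a hindbrain segment, had the lowest enrichment of the 3 placed genes. Its 5 kb (96225001 to 96230000) held 152 Ezh2 positions in Th1 and 288 in Th2, over 55 and 39 input positions and 32 control antibody positions. The fold was 3.98 in Th1 (2.91 to 5.53) and 6.35 in Th2 (4.53 to 9.11), against 0.972 (0.608 to 1.53) with the control antibody. In Th1 3 of 5 bins were called and in Th2 5 of 5. The Ezh2 level, in positions per kb and per 1000000 of the library, was 2.81 at Hoxb1, 6.18 at Hoxb13 and 9.16 at Hoxb9 in Th1, and 3.85, 7.47 and 10.9 in Th2.

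The order of the 3 genes was the same in both libraries, but its upper end was not resolved. Fold over input was 1.59 times as high at Hoxb9 as at Hoxb13 in Th1 (95% interval 0.898 to 2.81) and 1.46 times in Th2 (0.871 to 2.46), and both intervals include 1. Hoxb13 exceeded Hoxb1 by 4.02 times in Th1 (2.42 to 6.77) and 2.22 times in Th2 (1.34 to 3.72). Hoxb9 exceeded Hoxb1 by 6.38 times (3.82 to 10.8) and 3.25 times (1.96 to 5.43). These ratios take in the inputs as well as Ezh2. Input positions at Hoxb1, Hoxb13 and Hoxb9 were 55, 30 and 28 in Th1 and 39, 34 and 34 in Th2.

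A maximum of Ezh2 was sought near each given position, so its lying within 5 kb follows from the search. In a 500 bp sliding window searched 5 kb to each side, the Hoxb13 maximum was 0 bp from the given position in Th1, with 52 positions, and 1200 bp toward Hoxb9 in Th2, with 83. At Hoxb9 the maxima were 150 bp and 1300 bp toward Hoxb1, with 78 and 118 positions. At Hoxb1 they were 150 bp and 550 bp away on the far side, with 31 and 46 positions. The given positions are themselves approximate, so these distances carry an error that could not be measured.

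The second question was what happens between Hoxb13 and Hoxb9. Over the 67 kb gap (96061001 to 96128000), Ezh2 was enriched 4.70-fold (4.26 to 5.19) in Th1 and 6.29-fold (5.68 to 6.98) in Th2, against 0.872-fold (0.751 to 1.01) with the control antibody. It held 1717 Ezh2 positions in Th1 and 3109 in Th2, over 527 and 425 input positions. The fold in the gap was 0.635 times that of the Hoxb9 to Hoxb1 segment in Th1 (0.561 to 0.719) and 0.718 times in Th2 (0.631 to 0.818). Set against the Hoxb13 segment it was 0.406 times in Th1 (0.311 to 0.524) and 0.573 times in Th2 (0.446 to 0.730). The gap as a whole was therefore below the averages of the segments on either side of it in both libraries, by more than the counting error, and still enriched. The 5 kb at Hoxb1 stood at 3.98-fold (2.91 to 5.53) in Th1 and 6.35-fold (4.53 to 9.11) in Th2. Both of these intervals include the fold of the gap, and the gap was not tested against Hoxb1.

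The gap was not uniform, and its low part was its middle. The division of the gap into 3 stretches was made after its values had been seen and is a description. In the middle 30 kb (96079001 to 96109000) Ezh2 stood at 2.65-fold (2.23 to 3.17) in Th1 and 2.80-fold (2.38 to 3.31) in Th2, from 372 and 623 Ezh2 positions over 202 and 191 input positions. The control antibody was at 1.00-fold there (0.792 to 1.26). Of the tested bins, 2 of 29 were called in Th1 (6.90%) and 4 of 30 in Th2 (13.3%). Over all tested bins of the genome, 0.992% were called in Th1 and 1.21% in Th2. This fold was 0.359 times that of the Hoxb9 to Hoxb1 segment in Th1 (0.297 to 0.435) and 0.320 times in Th2 (0.267 to 0.385). The 50 kb that follow the window on the Hoxb1 side were themselves enriched over input. Their fold was 2.48 (2.20 to 2.81) in Th1 and 2.56 (2.27 to 2.90) in Th2. Against them the ratios of the middle were 1.07 (0.862 to 1.33) and 1.09 (0.890 to 1.35), and both intervals include 1.

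Both shoulders of the gap were higher than its middle. The 18 kb next to the Hoxb13 segment stood at 4.69-fold (3.95 to 5.59) in Th1 and 8.85-fold (7.19 to 11.0) in Th2, with 8 and 13 of 18 bins called. The 19 kb next to Hoxb9 stood at 7.41-fold (6.22 to 8.88) in Th1 and 9.34-fold (7.83 to 11.2) in Th2, with 18 and 19 of 19 bins called. The middle was 0.358 times the Hoxb9 shoulder in Th1 (0.278 to 0.460) and 0.301 times in Th2 (0.235 to 0.384). Against the Hoxb13 shoulder it was 0.566 times in Th1 (0.441 to 0.726) and 0.317 times in Th2 (0.241 to 0.415).

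Against 0.992% of all tested bins in Th1 and 1.21% in Th2, the gap had 42.4% and 53.7% called. These called bins numbered 28 of 66 in Th1 and 36 of 67 in Th2, of which 27 were shared. In Th1 they filled most of the stretch up to 96070000 and, from 96111001 on, all bins to the Hoxb9 segment, with single bins at 96104001, 96105001 and 96109001 before it. In Th2 they ran without a break from 96061001 to 96072000 and from 96108001 to 96128000. Single Th2 calls in between stood at 96074001, 96077001, 96090001, 96099001 and 96104001. Local maxima were the bins with the most Ezh2 of both libraries within 5 kb. In the gap they were at 96064001 (88 positions in Th1, 125 in Th2), 96113001 (69 and 122) and 96123001 (46 and 84). The last was 9.1 kb before Hoxb9. All of them were also maxima in Th1 alone. In Th2 alone, 96113001 was a maximum and the others were not, since 96062001 held 126 positions and 96122001 held 91.

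The third question was how Ezh2 was spread over the 8 remaining members after Hoxb9. The segment from 5 kb before Hoxb9 to 5 kb past Hoxb1 (96128001 to 96232000, 104 kb) was enriched 7.40-fold (6.87 to 7.98) in Th1 and 8.76-fold (8.11 to 9.47) in Th2, against 1.07-fold (0.958 to 1.19) with the control antibody. Called bins were 78 of 104 in Th1 and 91 of 104 in Th2. The Hoxb13 segment was 1.56 times as enriched as this one in Th1 (1.22 to 2.02) and 1.25 times in Th2, where the interval of 0.995 to 1.59 includes 1.

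Enrichment was higher at the Hoxb9 end than at the Hoxb1 end. The first 52 kb (96128001 to 96180000) stood at 10.1-fold (9.08 to 11.2) in Th1 and 11.8-fold (10.6 to 13.1) in Th2, with 47 and 50 bins called. The 52 kb on the Hoxb1 side stood at 4.73-fold (4.23 to 5.29) and 5.56-fold (4.96 to 6.24), with 31 and 41 bins called. The ratio of the first to the second was 2.13 in Th1 (1.83 to 2.48) and 2.12 in Th2 (1.81 to 2.48), almost the same size in both libraries. This division was made after the values had been seen. By gene order, the Hoxb9 end is where Hoxb8 and Hoxb7 follow, while Hoxb2, which acts with Hoxb1 in the hindbrain, lies next to Hoxb1.

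Local maxima were called where a bin held the most Ezh2 of both libraries within 5 kb, and 11 were found in the window. The tallest, at 0.9 kb past Hoxb9, held 127 positions (Th1) and 211 (Th2). Further ones after Hoxb9 lay 11.9 kb on (120 and 178 positions), 27.9 kb (82 and 146), 42.9 kb (37 and 59), 70.9 kb (44 and 54) and 81.9 kb (81 and 157). The one at 81.9 kb lay 12.5 kb before Hoxb1 and was taller than the maximum at Hoxb1 itself, which held 47 and 79. Not all of these were maxima in each library taken alone. Those at 11.9, 27.9 and 81.9 kb and at Hoxb1 were. The tallest was a maximum in Th2 but not in Th1, and those at 42.9 and 70.9 kb in Th1 but not in Th2. Which of Hoxb8, Hoxb7, Hoxb6, Hoxb5, Hoxb4, Hoxb3 or Hoxb2 each of the maxima falls on was not determined here. Of these genes, Hoxb4 is known for expanding blood stem cells when it is overexpressed, Hoxb5 for marking long-term blood stem cells in mice, and Hoxb8 for holding myeloid progenitors back from maturing. Hoxb3 and Hoxb2 pattern the hindbrain, and Hoxb6 and Hoxb7 the vertebrae of the neck and thorax.

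Low bins also occurred inside the segment. The 5 bins with the lowest fold between Hoxb9 and Hoxb1 in Th1 began at 96172001, 96170001, 96189001, 96197001 and 96225001, with folds from 0.986 to 2.26. In Th2 they began at 96186001, 96197001, 96221001, 96191001 and 96190001, with folds from 1.62 to 2.06. Only the bin at 96197001 was in both sets, with 23 Ezh2 and 16 input positions in Th1 and 24 and 12 in Th2. The lowest, at 96172001, held 6 Ezh2 and 9 input positions in Th1 but 30 and 9 in Th2, so the sets rest on small counts.

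Beyond the window, enrichment continued on both sides and was higher on the Hoxb13 side. The 50 kb before it stood at 4.52-fold (4.05 to 5.05) in Th1 and 5.87-fold (5.23 to 6.62) in Th2, with 26 and 28 of 50 bins called. The 50 kb after it stood at 2.48-fold (2.20 to 2.81) in Th1 and 2.56-fold (2.27 to 2.90) in Th2. There 7 of 50 bins (14%) were called in each cell type, against 0.992% of all tested bins in Th1 and 1.21% in Th2. The last 3 kb of the window stood at 2.73-fold (1.69 to 4.48) in Th1 and 3.06-fold (1.95 to 4.98) in Th2.

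The fourth question was whether Th1 and Th2 differed. The profiles followed each other closely: over the 185 bins, Ezh2 of Th1 and Th2 had a Spearman correlation of 0.924 and a Pearson correlation of 0.940, given as a description, since bins of 1 window share library and sequence. The inputs of the same bins had a Spearman correlation of -0.0043, and Th1 Ezh2 had 0.133 with its input and 0.102 with the control antibody. Bins held a median of 8 positions in Th1 input, 6 in Th2 input and 4 with the control antibody. Counting error at such counts lowers a correlation, so whether the inputs share a profile cannot be read from these values. Within the gap the Ezh2 profiles correlated at 0.841, and from Hoxb9 to Hoxb1 at 0.909.

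Per library total, Ezh2 was higher in Th2 than in Th1 over most of the cluster. The ratio of Th2 to Th1 was 1.26 over the window (1.22 to 1.29), 1.28 at the Hoxb13 segment (1.16 to 1.41), 1.31 in the gap (1.23 to 1.39) and 1.23 from Hoxb9 to Hoxb1 (1.19 to 1.28). It was above 1 in 35 of 37 blocks, with its interval above 1 in 21 and below 1 in 0. Enriched regions across the genome showed a like shift, with a median ratio of 1.17 over 2902 regions of at least 3 kb. The inputs had a Th2 to Th1 ratio of 1.03 over the window (0.959 to 1.12).

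**Figure D3:**
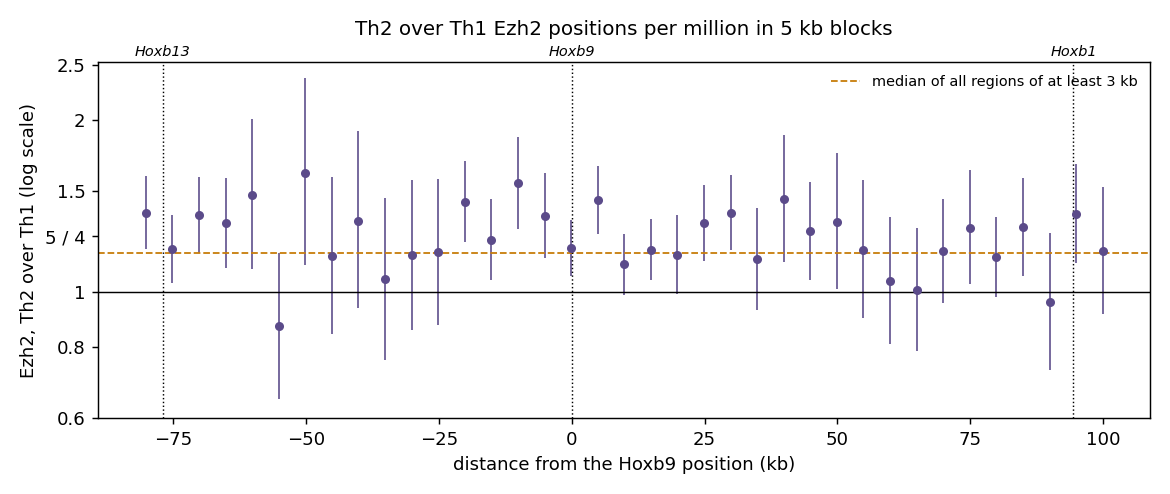
Ratio of Th2 to Th1 Ezh2 positions, each per library total, on a log axis in 37 blocks of 5 kb against distance from the Hoxb9 position in kb; points are ratios, bars 95% exact counting intervals, the solid line 1 and the dashed line the median of all 2902 regions, 1.17. Points lie above 1 in 35 blocks and on both sides of the dashed line.

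Fold over input was 1.21 times as high in Th2 as in Th1 over the window (1.12 to 1.32), the same as the median of 1.21 over the 2902 regions. Among the areas described above, the difference was largest on the Hoxb13 shoulder of the gap, and the inputs differed there as well. The fold of this shoulder was 1.89 times as high in Th2 as in Th1 (1.43 to 2.49). Ezh2 itself was 1.29 times as high (1.17 to 1.44), from 563 positions in Th1 and 1009 in Th2. The input was 0.686 times as high in Th2 (0.530 to 0.884), from 173 and 98 positions, and the Th1 control antibody was below the Th1 input, at 0.695-fold (0.521 to 0.920). The part of the inputs in this difference was not tested. At the Hoxb13 segment the ratio of the folds was 0.948 (0.681 to 1.32), and in the middle of the gap it was 1.06 (0.828 to 1.35).

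For the test across the genome, bins were first called with the Th1 and Th2 libraries pooled, Ezh2 over input, which called 1.28% of bins, and adjacent called bins made 2902 regions of at least 3 kb. HoxB overlapped 5 of them. The second widest of all, 139 kb (96103001 to 96242000), contained Hoxb9 and Hoxb1. The eighth widest, 54 kb (96018001 to 96072000), contained Hoxb13 and reached 32 kb before the window. Between them, in the gap, lay regions of 6, 3 and 3 kb, beginning at 96074001, 96088001 and 96098001.

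A two-sided exact binomial test compared Th1 with Th2 Ezh2 in each region against the median ratio, and regions counted as different when the ratio reached 2 and the adjusted p was below 0.05. Of the 5 HoxB regions 0 were called, against 0.724% of regions higher in Th1 and 0.586% higher in Th2. Without the limit on the ratio, 5.27% of regions were higher in Th1 and 7.20% in Th2, and both long HoxB regions were among the latter. The Hoxb9 to Hoxb1 region had a Th1 to Th2 ratio of 0.936 relative to the median (0.905 to 0.969, exact test, adjusted p = 0.00294), from 5324 and 9214 positions. The Hoxb13 region had 0.925 (0.877 to 0.975, exact test, adjusted p = 0.033), from 2194 and 3844 positions, and at equal depth this p was 0.126 in the same exact test. The median of the 146 regions of at least 20 kb was itself 0.948 on this scale, so the long HoxB regions lay close to other long regions. The 3 short regions had ratios of 1.27, 0.697 and 1.07, with adjusted p of 0.26, 0.26 and 0.915 in the exact test. For the region at 96088001, counting all reads gave a ratio of 0.588 (adjusted p = 0.000704) and taking library totals as the expected ratio gave 0.6001 (adjusted p = 0.0284), both in the exact test and both short of the 2-fold limit. Against library totals the median of all regions was itself 0.854, and all reads count repeated reads of a position. The share of all regions called under either setting is not given here.

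In none of the 5 regions was the difference in fold over input called by the conditional exact test, which called 0.517% of all regions. The adjusted p was 0.87 for the Hoxb9 to Hoxb1 region, with a ratio of 1.04 relative to the median, and 0.512 for the Hoxb13 region, with 0.874. For the 3 short regions it was between 0.705 and 0.967. These calls depend on the expected ratio. Against library totals in place of the median, the Th1 to Th2 fold ratio was 0.722 at the Hoxb13 region (adjusted p = 0.00199) and turned to 0.856 at the Hoxb9 to Hoxb1 region (adjusted p = 0.0289), both past the threshold in the conditional exact test. The median of all 2902 regions itself stood at 0.826 against library totals. The share of all regions called under this setting is not given here, so these calls cannot be read as particular to HoxB.

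Single bins gave a similar picture. Of 163 HoxB bins called on both libraries together, 0 were higher in Th1, against 0.316% of such bins, and 1 was higher in Th2, against 0.345%, by the exact binomial test with no limit on the ratio. That bin, 96122001 to 96123000, lay in the Hoxb9 shoulder of the gap where Th1 had 25 Ezh2 positions and Th2 had 91, a Th1 to Th2 ratio of 0.441 relative to the median (adjusted p = 0.032, exact test). The difference in its fold over input was not called in the conditional exact test, with an adjusted p of 1. Over the 163 bins 0 differed in fold by that test, against 0.0108% of all, and 11 had an unadjusted p below 0.05, which is 6.75% against 6.01% of all such bins.

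Lastly, the Hoxb9 to Hoxb1 region was set beside the widest enriched regions of chromosomes 2, 6 and 15, which carry the other Hox clusters of the mouse; genes were not placed on those regions. They spanned 124, 92 and 174 kb, and their folds were 9.03, 9.60 and 8.14 in Th1 and 12.2, 12.0 and 12.2 in Th2. HoxB, at 7.06 (6.61 to 7.54) in Th1 and 8.25 (7.72 to 8.83) in Th2, had the lowest fold of these 4 regions in both. Its Th2 to Th1 ratio of Ezh2 was 0.915 times that of the chromosome 2 region (0.873 to 0.959, adjusted p = 0.000557) and 0.929 times that of the chromosome 15 region (0.890 to 0.970, adjusted p = 0.00113), by Fisher's exact test over 3 pairs. Against the chromosome 6 region it was 0.995 (0.948 to 1.04, adjusted p = 0.827 in the same exact test). The inputs moved the other way against chromosome 15, with a ratio of 1.19 (1.06 to 1.34). For fold over input, which takes in both Ezh2 and input, the Th2 to Th1 ratio of HoxB was 0.863 times that of the chromosome 2 region (0.752 to 0.991), 0.932 times that of chromosome 6 (0.808 to 1.08) and 0.781 times that of chromosome 15 (0.690 to 0.884). Whether these differences would recur in other libraries was not tested.

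**Figure D4:**
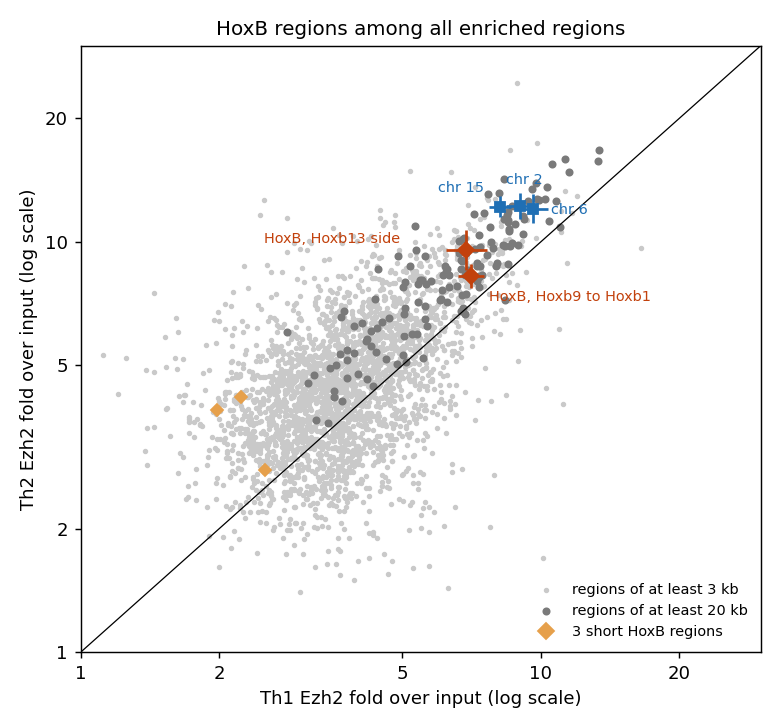
Th1 against Th2 Ezh2 fold over input, both on log axes, for the 2902 regions of at least 3 kb, with regions of at least 20 kb in dark grey, the HoxB regions as diamonds and the widest regions of chromosomes 2, 6 and 15 as squares; bars are 95% exact counting intervals and the line marks equal folds. Both long HoxB regions lie above the line among the long regions, at 7.06 and 8.25 and at 6.89 and 9.55, below the 3 squares in Th2.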

How the data were processed

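Per the labels' protocols, a gel fraction of 170 to 250 bp received 18 PCR cycles before an Illumina GAIIx run of 36 cycles. The submitters' processing notes name CASAVA and mm9. Alignment settings, read extension and any filter are not given in the sources used here. Values as deposited by the authors are read counts per interval of 119 bp, without strand or normalization. Each interval was counted once, at its midpoint, in 1 kb bins, which limits the weight of PCR duplicates. It also caps dense bins, since the highest HoxB bin used 21.1% of its possible starts in Th2. Between 99.69% and 99.77% of positions lay on chromosomes 1 to 19 and X, and these were the library totals.

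The members, areas and named bins were chosen with earlier results of these data known. Bins with under 10 positions were not tested, and 0.5 was added to each count for the fold of a bin. Tests ran over all bins or regions with Benjamini-Hochberg adjustment, and enriched bins up to 1 bin apart were joined. Named bins were the 5 with the most Ezh2 positions and the 5 with the lowest fold between Hoxb9 and Hoxb1 in each cell type, those called in the gap, and any that differed between Th1 and Th2. The steps were tested on simulated data. Alternatives were 2 kb bins, all reads, stricter calls, other scalings, inputs and borders, and equal depth. Python 3.11.15, numpy 2.4.6, scipy 1.17.1 and pandas 2.3.3 were used.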

Additional observations from a re-analysis of the deposited data

How the results depend on the processing

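No paired analysis was possible because all groups consist of a single library. The number of called HoxB bins stayed within 1.5 times its value under every setting tried, from 92 to 152 in Th1 and from 115 to 163 in Th2 with 1 kb bins, and 2 kb bins called 156 and 162 kb. The share called over all tested bins moved far more, from 0.463% with no minimum of positions to 3.999% with background scaling in Th1, and from 0.604% with no minimum to 5.83% with all reads in Th2. Segment folds depended on the scaling and the background. With totals from background bins only, the Hoxb13 segment was at 16.5 in Th1 and 15.4 in Th2, the gap at 6.69 and 8.84, and the Hoxb9 to Hoxb1 segment at 10.5 and 12.3. With the input of the other cell type, the Hoxb13 segment was at 8.58 in Th1 and 14.8 in Th2. With the control antibody as background in Th1, it was at 9.08 and the gap at 5.39. Borders 10 kb from the genes gave a gap of 4.03 and 4.99, which by construction holds less of its shoulders. The division of the Hoxb9 to Hoxb1 segment, added after seeing the data, gave 10.1 and 11.8 on the Hoxb9 side and 4.73 and 5.56 on the Hoxb1 side. For Th1 over Th2, dropping the limit on the ratio, also added later, called the Hoxb13 region (0.925) and the Hoxb9 to Hoxb1 region (0.936). When library totals set the expected ratio, the fold ratio was 0.722 at the Hoxb13 region (adjusted p = 0.00199 in the conditional exact test) and turned to 0.856 at the Hoxb9 to Hoxb1 region (adjusted p = 0.0289 in that exact test). It turned to 0.910 in the 6 kb region, and the Ezh2 ratio to 0.913 in the region at 96098001. Library totals in place of the median multiply the ratio of every region by the same factor, 0.854 for Ezh2 and 0.826 for fold. The turns to the other side of 1 under this setting follow from that factor. With 1 input for both cell types, Th1 or Th2, the input cancels and the fold ratio equals the Ezh2 ratio by construction. It was then 1.07 in the region at 96098001 and 0.936 in the Hoxb9 to Hoxb1 region. The cause of the other changes was not tested. Depth limits single bins: at a median of 6 to 8 input positions per bin, folds of neighbouring bins cannot be ranked.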
